A study of Mus musculus with 6 samples.

Results

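Aqp4, Aqp8, Fxyd2 and Fxyd4 are 4 genes of water and sodium transport in a table of 1382 Affymetrix probe sets that names 987 genes by 1 symbol each. The 4 genes were chosen with earlier results of these data known, for opposite movements within each family. All 6 probe sets annotated to them were taken, with 3 for Fxyd2 and 1 for each other gene. RNA came from uteri of female mice at 3.5 days post coitum, just before implantation, with 3 arrays of Stat3 f/f, in which the Stat3 alleles are floxed, and 3 arrays of Stat3 d/d, in which they are deleted. Neither the Cre driver nor strain, age, or whether each array came from its own animal is given in the labels. P-values therefore rest on the spread between arrays, which may be technical, and the number of arrays limits their precision.

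Aquaporins are membrane channels that let water follow osmotic gradients across epithelia. FXYD proteins are small membrane-spanning partners of the sodium pump (Na+/K+-ATPase), the enzyme that exports sodium and imports potassium and so sets the gradient water follows. Fxyd2, the gamma subunit of the renal pump, and Fxyd4, also called CHIF (corticosteroid hormone-induced factor), are known to shift the pump's affinity for sodium in opposite senses, Fxyd2 lowering it and Fxyd4 raising it. In the uterus, oestrogen promotes secretion of luminal fluid, and progesterone promotes its absorption before implantation, when the lumen closes around the blastocyst. Fluid itself was not measured here, and the values below are transcript intensities.

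Each family held members that moved in opposite directions, which is what the genes were chosen for and not a separate result. In Stat3 d/d, the water channel gene Aqp8 was 3.09-fold higher and Aqp4 was 2.07-fold lower, while the pump regulator gene Fxyd4 was 3.43-fold higher and Fxyd2 was 2.47-fold lower on its brightest probe set. These folds are from means of log2(intensity + 1), which understates the change of dim probe sets such as that of Aqp4. The table had been selected on this same comparison: the smallest ratio of group means is 1.50, and the share with groups that do not overlap is 100%. The share past an adjusted p of 0.05 in limma, a linear model fitted to all probe sets, is also 100%, with 67.4% higher and 32.6% lower in Stat3 d/d. That the members passed is therefore what any probe set of the table shows, and the tests below describe them without supporting them. Probe sets outside the table were not analysed here, so other members of these families cannot be called unchanged.

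On the brighter Stat3 probe set the Stat3 d/d arrays read 101 to 131 and the Stat3 f/f arrays 243 to 356, a log2 change of -1.27 (SE 0.20). Whether its probes fall inside the deleted exons was not examined. In whole uterus, fewer cells of a type and less RNA per cell cannot be told apart. Of 8 stromal markers, only Pgr and Dcn were in the table, both lower in Stat3 d/d. Of 11 markers of the luminal epithelium, Calb1 was higher and Lcn2 lower. None of 6 markers of myometrium and none of 5 of erythrocytes was in it, and their levels were not analysed here. Of 10 leukocyte markers 6 were in the table, all higher, with a summed intensity of 151 to 248 in Stat3 f/f and 464 to 745 in Stat3 d/d. Of 8 gland markers only Ttr was present, at 5.22 to 20.2 and 53.1 to 73.8, and of 8 oviduct and ovary markers only Ovgp1, at 7.42 to 31.3 and 240 to 494. No marker in the table had a value of 0. The part of any of these in the results below was not tested.

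RefSeq promoter sequences on GRCm38.p6 are given for 2 of the 4 members, Aqp8 and Fxyd4. These happen to be the 2 genes that rose, and they were not picked for their direction. A chromosome was left out when member windows were taken, though not for the shares over all windows below. Why Aqp4 and Fxyd2 each lack a window was not examined, and the lack does not mean that none exists. Their promoters were not examined here. Each line gives the 250 bases before the annotated start, 5′ to 3′ on the gene's strand, and the capitals mark TTTAAA, a core-promoter-like run of the kind found before many starts. The Aqp8 window lies at chr7:123462044-123462293 on the plus strand and the Fxyd4 window at chr6:117937336-117937585 on the minus strand.
Aqp8: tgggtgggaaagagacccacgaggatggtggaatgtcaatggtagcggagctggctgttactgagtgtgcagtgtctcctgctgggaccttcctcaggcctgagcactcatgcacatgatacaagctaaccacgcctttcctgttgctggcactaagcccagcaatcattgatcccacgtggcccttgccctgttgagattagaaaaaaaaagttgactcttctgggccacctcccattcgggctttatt
Fxyd4: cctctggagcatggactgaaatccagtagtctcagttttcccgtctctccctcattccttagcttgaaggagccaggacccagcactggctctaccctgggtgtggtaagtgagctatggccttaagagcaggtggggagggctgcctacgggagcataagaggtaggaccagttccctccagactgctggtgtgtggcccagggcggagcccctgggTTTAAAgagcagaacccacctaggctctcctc

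Neither window holds TTCNNNGAA, the palindrome bound by STAT proteins, which 7.02% of the 32851 promoter windows of this length hold. Neither holds, on either strand, the half-site TGTTCT of the progesterone and glucocorticoid receptors (16.1% of windows). The motifs searched do not overlap in these windows. The Fxyd4 window holds TTTAAA at positions -32 to -27 from the start, and the Aqp8 window does not hold it. That run is found in 12.1% of windows and was searched for after the sequences had been seen. Absence of a match says only that these letters are not in the window.

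Aqp8 encodes a channel that passes water and also ammonia and hydrogen peroxide. Its probe set (1417828_at) read 34.8, 41.2 and 24.6 in Stat3 f/f replicates 1, 2 and 4, and 88.7, 160 and 78.2 in Stat3 d/d replicates 1, 2 and 3. Every Stat3 d/d array lay above every Stat3 f/f array, and Stat3 d/d replicate 2 stood well above the other two. The group means were 33.6 ± 8.37 and 109 ± 44.3 (intensity, SD, n = 3 arrays each), with a log2 change of 1.63 (SE 0.28; limma adjusted p = 0.000633). Of the probe sets in the table, 89.5% had a lower change. Without Stat3 d/d replicate 2 the log2 change was 1.32, and without Stat3 f/f replicate 4, the lowest of its group, it was 1.42.

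Aqp4 encodes an orthodox water channel, best known from astrocyte end-feet and also made by epithelia. Its probe set (1434449_at) read 8.74, 7.03 and 7.85 in Stat3 f/f and 3.42, 3.44 and 2.96 in Stat3 d/d, in the same order of replicates. The arrays of each group lay close together and the groups did not overlap. All values are near the lowest intensity of the table, 2.47, so the size of the change rests on dim signal. The means were 7.87 ± 0.855 and 3.27 ± 0.272, a log2 change of -1.05 (SE 0.16; limma adjusted p = 0.000362), and -1.26 when no pseudocount was added. A detection call for this probe set was not used here.

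Fxyd4 encodes the CHIF protein, best known from kidney collecting duct and colon. Its probe set (1418207_at) read 961 and 978 in Stat3 f/f replicates 1 and 2 but 286 in replicate 4. In Stat3 d/d it read 2209, 2100 and 2353. The Stat3 d/d arrays were close together, whereas Stat3 f/f replicate 4 lay far below the other arrays of its group. The means were 742 ± 395 and 2221 ± 127, a log2 change of 1.78 (SE 0.39; limma adjusted p = 0.00222). Without Stat3 f/f replicate 4 the log2 change was 1.19, below the 1.42 of Aqp8 under the same setting, so that array decides much of its size. The 2 remaining Stat3 f/f arrays were below all 3 Stat3 d/d arrays, as they must be where the full groups do not overlap.

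**Figure D1:**
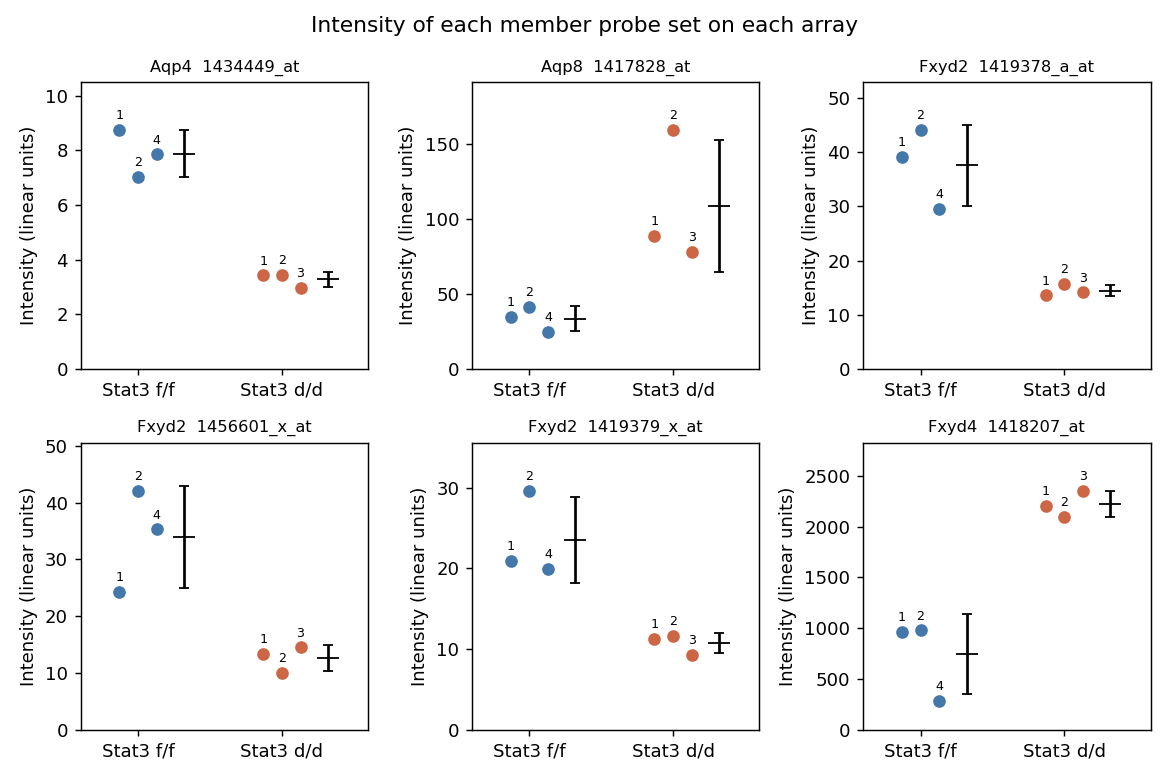
Intensity (linear units, axis from 0) of each of the 6 member probe sets on each array, with Stat3 f/f in blue and Stat3 d/d in orange; small numbers are replicate numbers, and the black bar is the mean ± SD of 3 arrays. Aqp8 and Fxyd4 are higher and Aqp4 and all 3 Fxyd2 probe sets lower in every Stat3 d/d array, and the Fxyd4 value of 286 in Stat3 f/f replicate 4 stands below 961 and 978.

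Fxyd2 was lower on each of its 3 probe sets. The brightest (1419378_a_at) read 39.2, 44.1 and 29.5 in Stat3 f/f and 13.6, 15.6 and 14.1 in Stat3 d/d, with means of 37.6 ± 7.42 and 14.4 ± 1.06. Its log2 change was -1.30 (SE 0.19; limma adjusted p = 0.000220). The second (1456601_x_at) fell from 33.9 ± 8.96 to 12.6 ± 2.31, a log2 change of -1.34 (SE 0.23), and the third (1419379_x_at) from 23.5 ± 5.31 to 10.7 ± 1.29, a log2 change of -1.05 (SE 0.20). On all 3, Stat3 f/f replicate 2 was the highest array, but the order of the other Stat3 f/f arrays differed between probe sets. The suffix of the second and the third marks probes that can also match other transcripts, and that of the first marks transcripts of the same gene. The 3 probe sets share a target and are not replicates of the condition.

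The opposite movements were also measured inside each array, where a shift of all log2 values of 1 array cancels. The log2 difference Aqp8 minus Aqp4 was 1.88, 2.40 and 1.53 in the Stat3 f/f arrays and 4.34, 5.18 and 4.32 in the Stat3 d/d arrays. The mean thus moved from 1.94 ± 0.43 to 4.61 ± 0.49, a shift of 2.68 (SE 0.38), or 6.40-fold in the ratio. With no pseudocount, which weighs on a probe set as dim as that of Aqp4, the shift was 2.92. As the 2 genes are read by different probes, the values in 1 group give no ratio of transcripts, and only the shift between groups can be read. No test is given, because the genes were proposed for their opposite movement.

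The same difference was taken for the pump regulators. Fxyd4 minus Fxyd2, by the brightest Fxyd2 probe set, was 4.58, 4.44 and 3.23 in Stat3 f/f and 7.24, 6.98 and 7.28 in Stat3 d/d, a shift of 3.08 (SE 0.44), or 8.48-fold. With the other Fxyd2 probe sets it was 3.11 (SE 0.68) and 2.82 (SE 0.52). Stat3 f/f replicate 4 was the lowest array in each of these, and without it the shift by the brightest probe set was 2.66. The lowest Stat3 d/d array exceeded the highest Stat3 f/f array in all 4 within-array differences. That had to be so, because the groups of each probe set do not overlap and the paired genes move in opposite directions.

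**Figure D2:**
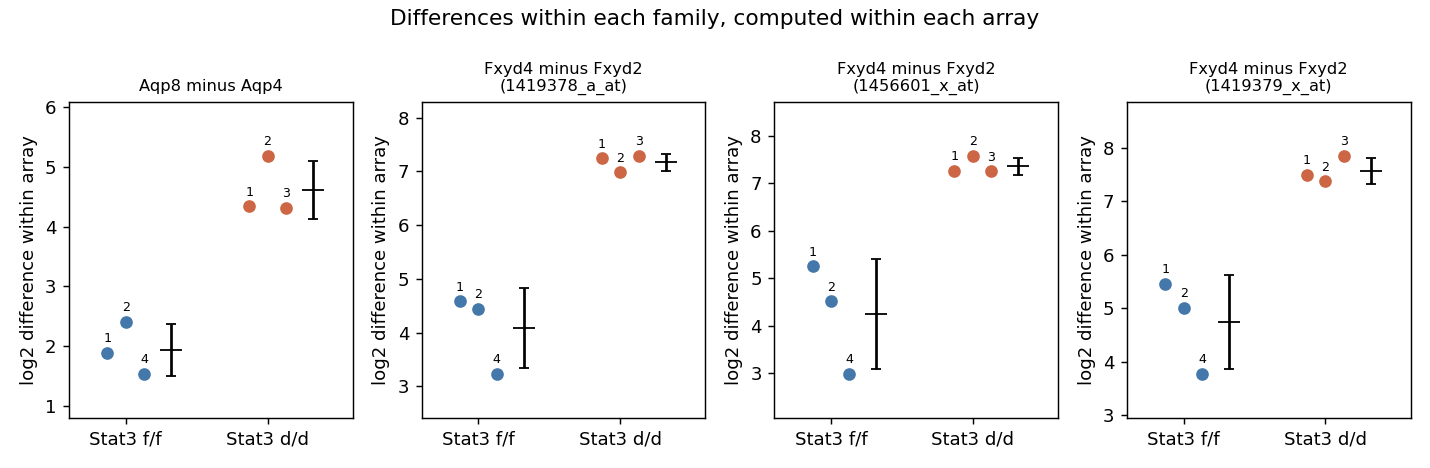
Difference of log2(intensity + 1) between family members within each array, for Aqp8 minus Aqp4 and for Fxyd4 minus each Fxyd2 probe set; points are arrays with their replicate numbers and black bars are the mean ± SD of 3 arrays. The shift from Stat3 f/f to Stat3 d/d was 2.68 for the aquaporins and 3.08, 3.11 and 2.82 for the Fxyd pairs.

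Other genes of uterine fluid transport were taken from 6 lists. Of their 83 genes, 13 were in the table, 8 higher and 5 lower in Stat3 d/d, with a median log2 change of 0.96 against 0.70 over all probe sets. Leaving out the 4 members, 6 were higher and 3 lower. All 13 passed, as did 100% of the table. Scaling matters here: subtracting from each array its own median lowered the median change over the table from 0.70 to 0.24, quantile normalization lowered it to 0.25, and 4 of the 8 rises then passed under each, against all 5 falls. Over the whole table, 45.3% of rises passed after centring and 47.0% after quantile normalization, and 100% of falls under both, so these counts are near the table's own shares. Both scalings assume that most probe sets do not change, which a table selected for change does not meet. A call lost or kept under them therefore says little about the gene itself.

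Both families had another gene in the table. Aqp11, an aquaporin of intracellular membranes, read 17.8, 25.8 and 26.5 in Stat3 f/f and 40.4, 43.1 and 49.8 in Stat3 d/d, a log2 change of 0.91 (SE 0.20; limma adjusted p = 0.00193). It moved in the direction of Aqp8, and lost its call after median centring (log2 change 0.45, adjusted p = 0.0851) and quantile normalization (0.42, adjusted p = 0.119). Fxyd6, a pump regulator described mainly in neural tissue, fell from 96.5 ± 13.1 to 55.8 ± 11.5, a log2 change of -0.79 (SE 0.20; limma adjusted p = 0.00370), in the direction of Fxyd2. The table therefore held 3 of 12 aquaporin genes, 2 higher and 1 lower, and 3 of 7 Fxyd genes, 1 higher and 2 lower.

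Of 9 sodium pump and related proton pump genes, 2 were in the table and both were higher. Atp1b1, the beta subunit that carries the catalytic chain to the membrane, read 649, 533 and 323 in Stat3 f/f and 1031, 833 and 956 in Stat3 d/d on its brighter probe set (log2 change 0.96, SE 0.25). Its second probe set gave 1.26 (SE 0.26). Without Stat3 f/f replicate 4, again the lowest array, the brighter probe set gave 0.67, and after median centring 0.49 (limma adjusted p = 0.0962). The second probe set kept its call after median centring (0.79, limma adjusted p = 0.0174) and quantile normalization (0.81, adjusted p = 0.0194). Atp12a, the catalytic chain of a non-gastric proton-potassium pump, rose from 21.0 ± 10.8 to 53.4 ± 1.90 (1.42, SE 0.29), and gave 1.10 without that array. Within the arrays, Fxyd4 minus Atp1b1 by its brighter probe set shifted by 0.82 (SE 0.32) from Stat3 f/f to Stat3 d/d. This difference was not tested and was 0.52 without Stat3 f/f replicate 4. The second Atp1b1 probe set rose more (1.26, and 1.02 without that array), so the shift against it is smaller in both settings.

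Among 15 genes of epithelial sodium entry, Sgk1 and Nedd4 were in the table and moved in opposite directions. Sgk1, a hormone-induced kinase that keeps sodium channels at the cell surface, rose from 188 ± 26.1 to 369 ± 68.9 (log2 change 0.96, SE 0.20). Nedd4, a ubiquitin ligase related to the enzyme that removes those channels, fell from 2477 ± 255 to 1323 ± 407 (-0.95, SE 0.23). Sgk1 lost its call after quantile normalization (0.41, limma adjusted p = 0.0812) and kept it after median centring (0.50, adjusted p = 0.0360), and Nedd4 kept its call under both scalings. With 45000 assumed tests Sgk1 passed (limma adjusted p = 0.0478), alone among the transport genes outside the members. Nedd4 (0.112) was among those that did not pass. No subunit of the epithelial sodium channel was in the table, and their levels were not analysed here.

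Of 21 genes of chloride and bicarbonate transport, 2 were in the table and rose. Car12, a membrane carbonic anhydrase, went from 99.3 ± 41.5 to 209 ± 35.2 (log2 change 1.14, SE 0.28), and Clca3a1, a regulator of calcium-activated chloride conductance, from 5.85 ± 1.97 to 14.6 ± 4.86 (1.17, SE 0.28). Clca3a1 was dim, and after median centring its adjusted p in limma was 0.0507 and that of Car12 0.0667. After quantile normalization Clca3a1 kept its call (0.73, limma adjusted p = 0.0418) and Car12 did not (0.71, adjusted p = 0.0630). Of 19 cotransporter and potassium channel genes only Kcnma1 was present. This large-conductance potassium channel, abundant in smooth muscle, fell from 23.4 ± 4.40 to 12.7 ± 1.19 (-0.82, SE 0.19). The list did not hold every potassium channel of the table: Kcnd2, outside it, was higher in Stat3 d/d (log2 change 1.88). Across the 8 transport genes that rose, Stat3 f/f replicate 4 was the lowest Stat3 f/f array for 6, namely Aqp8, Fxyd4, Atp1b1, Atp12a, Clca3a1 and Car12. It was lowest in 41.1% of all 931 rises in the table. Among the 5 transport genes that fell, it was the lowest Stat3 f/f array for 3 (Fxyd2, Nedd4 and Kcnma1) and the highest for 1 (Fxyd6), against 23.5% and 49.4% of all 451 falls.

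**Figure D3:**
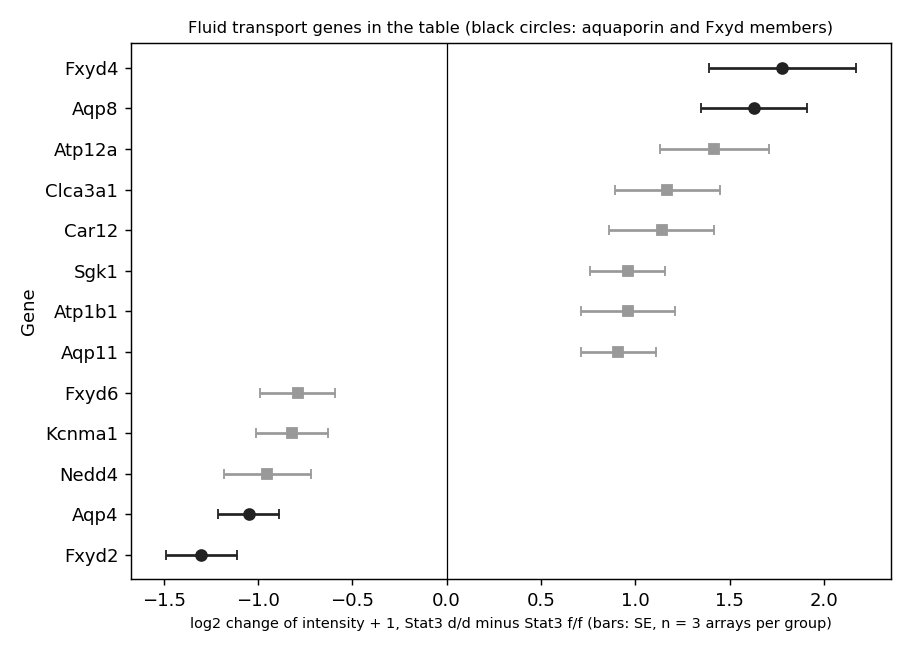
Log2 change (Stat3 d/d minus Stat3 f/f, log2 of intensity + 1) of the 13 fluid transport genes in the table, each by its brightest probe set; bars are the SE from limma with 3 arrays per group. Black circles are the 4 genes described first, with Fxyd4 at 1.78 and Aqp8 at 1.63 at the top and Aqp4 at -1.05 and Fxyd2 at -1.30 at the bottom.

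The probe sets whose profiles over the 6 arrays lay nearest to each gene were listed by the root mean square difference of log2 values, after each probe set's own mean was subtracted. Fxyd4 lay nearest to B3gnt5, a glycosyltransferase, Kcnd2, a voltage-gated potassium channel, and Pof1b, an actin-binding epithelial protein, at 0.17, 0.17 and 0.20. These share its low value in Stat3 f/f replicate 4: B3gnt5 read 53.5, 40.1 and 13.1 in Stat3 f/f and 98.0 to 138 in Stat3 d/d. Aqp8 lay nearest to Eomes, a transcription factor, Gbp2, an interferon-induced GTPase, and Zbp1, a nucleic acid sensor, at 0.22, 0.25 and 0.26. In all 3, as in Aqp8, Stat3 d/d replicate 2 was the highest array.

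The profile of Fxyd2 on its brightest probe set lay nearest to that of Stat3 itself, at 0.12 by the dimmer of the 2 Stat3 probe sets, followed by Abhd1 at 0.15 and Ocel1 at 0.17. By the second Fxyd2 probe set the nearest were Pgbd5 (0.13), Rgs4 (0.19) and Stat3 (0.19), and by the third Ciapin1 (0.10), Ywhaz (0.11) and Rfxank (0.12), so the neighbours depended on the probe set. Aqp4 lay nearest to Gfra2 (0.07), Ckmt1 (0.08) and Timmdc1 (0.09). With 6 arrays and a table chosen for this contrast, such likeness describes these arrays only, and each list was drawn from at least 1188 probe sets.

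Directions of the members held under each setting that gave a value. Because the groups of each probe set do not overlap, only median centring and quantile normalization could have turned a direction. Over the 6 fits that left out 1 array, the log2 change ranged from 1.32 to 1.83 for Aqp8, from -1.12 to -0.98 for Aqp4, from 1.19 to 2.08 for Fxyd4, and from -1.47 to -1.18 for the brightest Fxyd2 probe set. After median centring the values were 1.16, -1.52, 1.31 and -1.77 in that order. The rises were smaller and the falls deeper because centring moves every probe set down alike when the table's median is higher in Stat3 d/d. When 45000 tests were assumed, about the number of probe sets on such an array, 37.5% of the table passed, with 28.0% higher and 9.48% lower. Aqp8 (adjusted p = 0.0206 in limma), Aqp4 (0.0118) and all 3 Fxyd2 probe sets (0.00715 to 0.0301) then passed, and Fxyd4 (0.0723) did not. This setting does not undo the selection of the table.

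**Figure D4:**
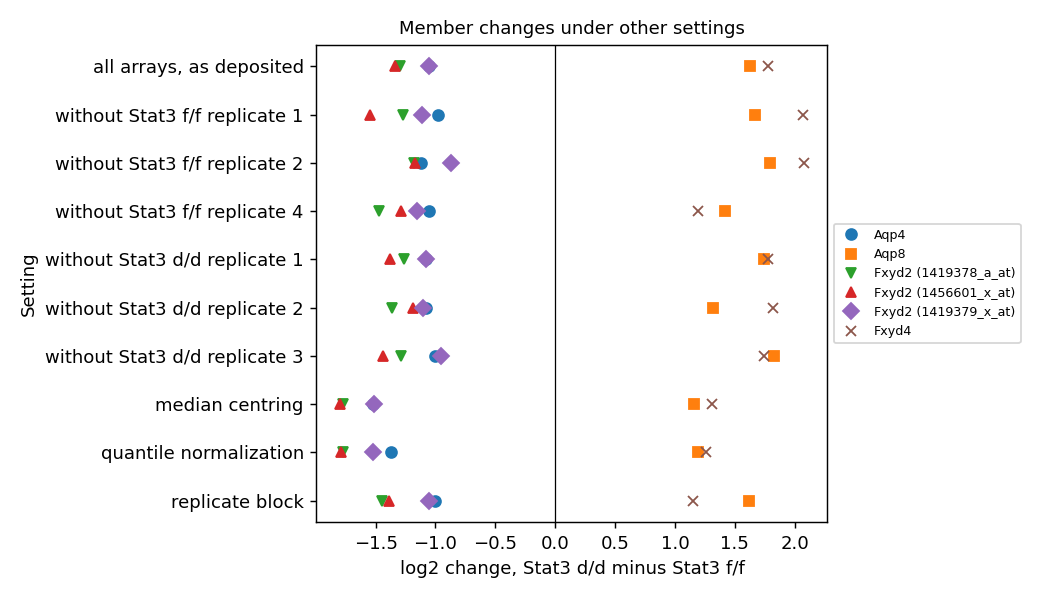
Log2 change of each member probe set (Stat3 d/d minus Stat3 f/f) with all arrays as deposited, with each array left out, under both scalings and with the replicate number as a block. Aqp8 and Fxyd4 stay above 0 and the other 4 probe sets below 0 in each setting shown, and Fxyd4 is lowest, at 1.15, with the block. Only the scalings could have turned a direction, because the groups of each probe set do not overlap.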

How the data were processed

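The 6 arrays were grouped by the source names in the labels, with replicate numbers from the sample titles. The authors deposited intensities per probe set, not on a log scale, made with RMA (robust multi-array average; version not given) per the submitters' processing notes. The return to a linear scale and the selection of 1382 probe sets are not recorded in the sources used here. Names came from the platform's annotation: 1191 probe sets had 1 symbol, 57 several and 134 were unnamed here. The genome build of the annotation is not given in the sources used here. A gene was represented by its probe set with the highest mean.

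Log2(intensity + 1) was compared between the groups by limma 3.58.1 (R 4.3.3), with lmFit and eBayes and the group as the only term. P-values were adjusted by Benjamini-Hochberg over all probe sets, and 0.05 was the threshold. The fit was run on simulated data in which most probe sets were unchanged. A table selected for change differs from that, so the run does not bear on the p-values given here. For a single gene, 3 against 3 arrays allow no exact permutation p below 0.100 (two-sided). Named genes were Stat3, the members, every list gene in the table, and the 3 nearest profiles of each member probe set. The members and lists were chosen with earlier results of these data known. Alternatives were both scalings, no pseudocount, a mean intensity of at least 20, an intensity trend, 45000 assumed tests, the replicate block and leaving out each array. Figures used matplotlib 3.10.9.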

Additional observations from a re-analysis of the deposited data

How the results depend on the processing

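Of 76 alternative values of the 6 member probe sets, 75 kept their direction and their side of the threshold. The exception was Fxyd4 with 45000 assumed tests (log2 change 1.78, limma adjusted p = 0.0723). Over the whole table, the fits that left out 1 array called 904 to 927 probe sets higher, against 931 with all arrays. They called 438 to 450 lower, against 451. Keeping a call is therefore common in this table and does not set the members apart. Keeping a direction does not either, because it could turn only under the scalings. Without probe sets of a mean intensity under 20, Aqp4 and the dimmest Fxyd2 probe set gave no value. The within-array differences moved by less than the SD between arrays pooled over both groups with no pseudocount, with quantile normalization and with the replicate block. With the block the 3 Fxyd4 minus Fxyd2 shifts were 2.60, 2.54 and 2.20 against 3.08, 3.11 and 2.82, moves larger than the SDs of the Stat3 d/d arrays alone (0.16, 0.18 and 0.24). Leaving out 1 array gave 2.40 to 2.91 for Aqp8 minus Aqp4 and 2.66 to 3.33 for Fxyd4 minus the brightest Fxyd2 probe set.

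Of all probe sets, 931 were called higher and 451 lower. The higher count was 438 with quantile normalization, 422 with median centring and 578 without dim probe sets, and with 45000 assumed tests the counts were 387 higher and 131 lower. Of the transport genes, 8 were called higher and 5 lower. With quantile normalization or median centring 4 were called higher, without dim probe sets 3 were called lower because fewer were tested, and with 45000 assumed tests 2 were higher and 2 lower.

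Replicate numbers 1 and 2 occur in both groups, and the labels do not say what the numbers mean. Deviations of same-numbered arrays from their group means correlated at 0.088 and 0.028 over all probe sets. With 2 pairs and a table selected on the groups, these values cannot show whether same-numbered arrays were handled together. With the number as a block the log2 changes were 1.62 for Aqp8, 1.15 for Fxyd4 and -1.45 for the brightest Fxyd2 probe set, an estimate that uses the numbers found in both groups and so leaves out Stat3 f/f replicate 4 and Stat3 d/d replicate 3. The selection of the table is a limit that no alternative removes.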
